A study of Mus musculus with 6 samples.

Results

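Open chromatin at 10 genes of the ETS transcription factor family (Ets1, Ets2, Gabpa, Elf1, Elk3, Elk4, Erf, Etv6, Fli1 and Erg) was examined in cultured mouse adipocytes. The genes were taken by name from the GENCODE annotation of mm10, and all 10 were found among the 21851 protein-coding genes of that annotation with a start site in the set. Each was described by the ATAC-seq peaks inside the gene and within 50 kb to each side, and by its promoter peaks, which are those within 1 kb of a coding start site. These windows held 271 of the 194496 regions obtained by merging the 6 peak lists, and 3 of the 271 lay in the windows of both Ets1 and Fli1, which are neighbours on chromosome 9.

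ATAC-seq cuts accessible DNA with a transposase, so that a peak marks open chromatin and not transcription. The cells were differentiated for 7 days from the stromal vascular fraction of wild-type male C57BL/6J mice aged 3 to 4 weeks. Beige and white adipocytes came from subcutaneous (inguinal) adipose tissue and brown adipocytes from brown adipose tissue, with 2 libraries in each of the 3 groups. Beige and brown cells received 5 µM dexamethasone, 0.5 mM IBMX, 1 nM T3, 1 µM rosiglitazone and insulin, whereas white cells received 1 µM dexamethasone, 0.5 mM IBMX and insulin without T3 or rosiglitazone. By these labels beige and white differ in medium, and brown and beige in depot. The paper does not describe the brown libraries, and whether they were prepared together with the others is not stated, so that depot and a separate preparation cannot be told apart. White and brown differ in both, so that the medium and the depot cannot be told apart between them. The paper calls its ATAC-seq replicates biological. It is not stated whether animals were pooled, and nothing describes how the brown replicates were obtained, so that the spread between the brown libraries may be technical.

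The lists held 109143 to 127490 peaks and no read counts, so sequencing depth cannot be read from them. The paper's reporting summary lists fewer mapped reads, and a smaller mapped share, for both beige than for both white libraries, and the part of this in the beige and white comparison was not tested. Promoters of all 10 adipocyte markers were open in all 6 libraries, but not all were strong. Their mean percentiles ran from 28.4 (Plin1) and 35.0 (Adipoq) to 78.1 (Pparg) and 80.9 (Slc2a4). Of 10 macrophage markers 4 to 5 were open per library. Cd14, Csf1r, Adgre1 and Cd68 were open in all 6, at mean percentiles of 79.9, 75.9, 42.2 and 11.7. Ptprc, Itgam, C1qa, Aif1 and Mrc1 had no promoter peak in any library. Of 10 endothelial markers 5 to 7 were open. Pecam1, Kdr, Tek, Cldn5 and Egfl7 were open in all 6 libraries, and Cdh5, Emcn and Vwf in none. Of 10 progenitor markers 8 to 10 were open. A bulk list cannot tell fewer cells of a type from a weaker site in each cell.

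ETS proteins share a DNA-binding domain that recognises a GGAA core, and their flanking bases and partners set them apart. Ets1 and Ets2 are known as activators that respond to growth factor signalling. Gabpa binds with a GABPB partner and is known for driving nuclear genes of mitochondrial proteins. Elk3 and Elk4 act with serum response factor, and Elf1 is a widely expressed regulator best known in blood cells. Erf and Etv6 are repressors, while Fli1 and Erg are known for endothelial and blood cell programmes. The study from which these libraries come is concerned with Ets1 in beige adipocytes. It reports that forced Ets1 expression raised autophagy genes and suppressed mitochondrial genes.

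All 10 ETS genes had a promoter peak in each of the 6 libraries. Across all protein-coding genes, 62.9% did. The genes differed widely in how strong that peak was: Ets1, Ets2 and Gabpa stood near the middle of open promoters, and Elk3, Fli1 and Erg far down. Strength was read as a percentile, the rank of a peak's fold enrichment among all peaks of its own library with the largest at 100. Where a promoter or merged region held several peaks, the one with the highest -log10 q was taken. That peak is called the strongest or best, and need not have the largest fold. Open promoters in general rank high on this scale, with library medians of 84.3 to 89.6.

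**Figure D1:**
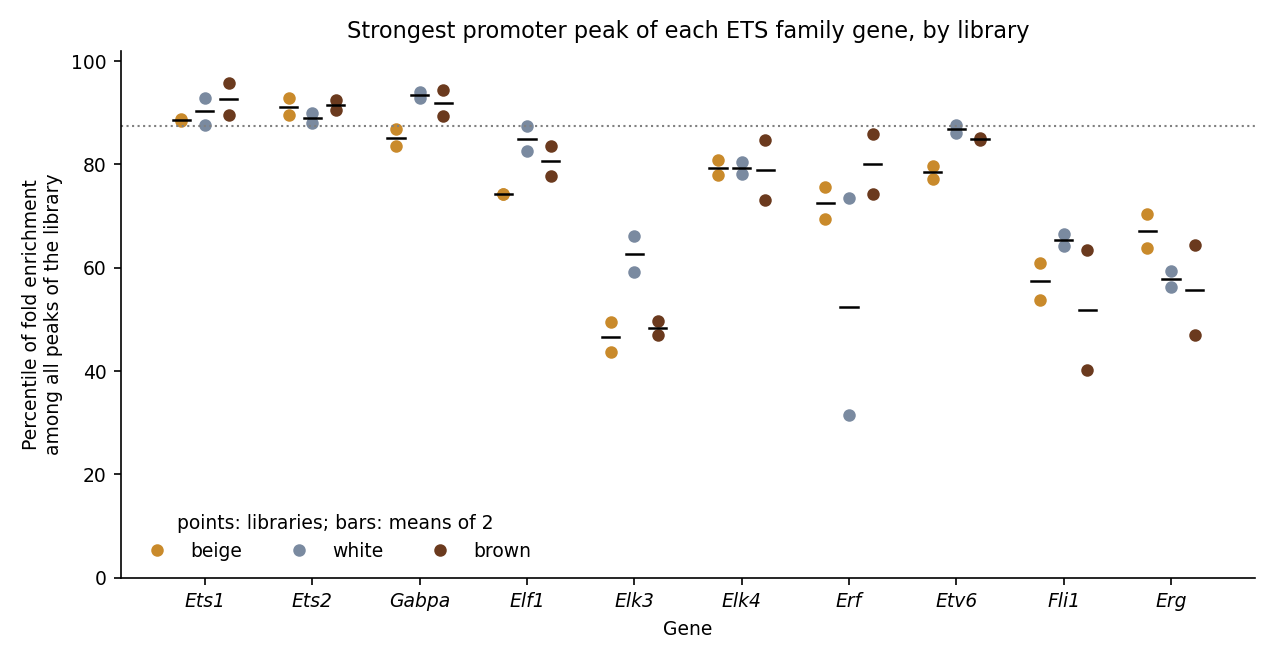
Percentile of fold enrichment of the strongest promoter peak (vertical axis, among all peaks of the library) for the 10 ETS genes (horizontal axis). The strongest is the peak with the highest -log10 q. Points are libraries, bars are means of 2, and the dotted line at 87.5 is the median over the 6 libraries of the median open promoter. Ets1, Ets2 and Gabpa lie around the line in all groups, and Elk3, Fli1 and Erg lie below it in every library.

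Ets1 (chr9:32636221-32757820, + strand) and Ets2 (chr16:95702075-95721051, + strand) ranked close together. Positions are those of mm10. The Ets1 promoter peak stood at percentile 88.8 and 88.5 in beige, 92.9 and 87.7 in white, and 89.6 and 95.8 in brown. Ets2 stood at 92.8 and 89.6 in beige, 87.9 and 89.9 in white, and 92.5 and 90.6 in brown. The means over 6 libraries were 90.5 ± 3.18 (SD, n = 6) for Ets1 and 90.6 ± 1.84 for Ets2, which differ by less than their spread. For Ets1 the beige libraries lay inside the white range, and both brown libraries lay above both beige ones, an order lost among open promoters only (52.2 and 55.1 in beige, 53.7 and 73.8 in brown). Among the best peaks of open promoters alone, Ets1 averaged percentile 59.8 and Ets2 58.8.

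Gabpa (chr16:84834925-84863779, + strand) ranked at 86.8 and 83.6 in beige, 94.1 and 92.8 in white, and 89.3 and 94.5 in brown. Beige lay below both other groups, without overlap. The Gabpa peak is shared with Atp5j, a subunit gene of mitochondrial ATP synthase that starts at the same place, so that it cannot be assigned to Gabpa alone. Gabpa's mean among open promoters was 59.1, close to that of Ets1 and Ets2.

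Of the ternary complex genes, Elk4 (chr1:132007607-132032612, + strand) overlapped between all groups. Elk3 (chr10:93247414-93311135, - strand) ranked higher in white by its best promoter peak. The Elk4 promoter stood at 80.8 and 77.9 in beige, 80.5 and 78.1 in white, and 73.1 and 84.8 in brown. The Elk3 promoter was among the weakest, at 49.6 and 43.7 in beige, 66.2 and 59.1 in white, and 49.6 and 47.0 in brown. Both white libraries exceeded all 4 others, but the peaks taken were not the same element. Their summits lay at -206 to -2 from the Elk3-204 start in beige and white, and at 641 and 642 in brown. The Elk3 region at the start averaged 16.0 points lower in beige and 16.2 lower in brown than in white. The region at +0.6 kb, also open in all 6 libraries, averaged 11.7 points higher in beige and 18.1 higher in brown than in white.

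Elf1 (chr14:79481194-79582494, + strand) stood at 74.2 and 74.2 in beige, 87.4 and 82.5 in white, and 77.7 and 83.5 in brown. Beige lay below both other groups without overlap. Its promoter peak lies where the neighbouring gene Wbp4 also starts.

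Of the repressors, Etv6 (chr6:134035700-134270158, + strand) separated the 3 groups, at 79.8 and 77.1 in beige, 87.7 and 86.0 in white, and 84.8 and 85.2 in brown. Its summit lay at positions -467 to -492 from the start in all 6 libraries. Erf (chr7:25242561-25250761, - strand) stood at 75.6 and 69.4 in beige, 73.6 and 31.4 in white, and 74.4 and 85.8 in brown. White replicate 2 stood far below the rest, and without it the beige-minus-white difference went from 19.97 to -1.12 percentile points.

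The endothelial and blood cell genes had weak promoter peaks set inside the gene. Fli1 (chr9:32422204-32542861, - strand) stood at 53.9 and 61.0 in beige, 64.3 and 66.5 in white, and 63.5 and 40.3 in brown, with summits 521 to 1040 bases downstream of the start. Erg (chr16:95359169-95586593, - strand) stood at 63.8 and 70.5 in beige, 56.3 and 59.3 in white, and 47.0 and 64.5 in brown, with summits 934 to 994 bases downstream of its most upstream start. Erg was the 1 gene ranked higher in both beige than in both white libraries. Of the 10 endothelial markers 5 were open in all 6 libraries. Pecam1, Kdr, Tek, Cldn5 and Egfl7 stood at mean percentiles of 75.5, 77.2, 84.8, 55.5 and 22.3. Tie1 and Esam had a promoter peak in 2 libraries each, at means of 14.4 and 24.7, and Cdh5, Emcn and Vwf had none. Any part of other cells in the Erg and Fli1 peaks was not tested.

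Between beige and white, 5 of 10 ETS promoters (Gabpa, Elf1, Elk3, Etv6 and Fli1) ranked lower in both beige libraries than in both white ones, where 19.9% of the 13743 promoters open throughout did. Erg alone ranked higher, against 28.5%. For Fli1 the difference of -7.96 points turned to 2.79 and 14.7 with a promoter distance of 500 and 250 bp, and to 27.97 where the summit had to lie in the window. With percentiles taken among open promoters only, a scale added after the values were seen, 7 of 10 lay lower (25.4% of all) and 0 higher (24.8%). Ets1 and Elk4 joined the lower ones on that scale, and Erg no longer stood apart. An exact permutation test of 2 libraries against 2 cannot give a two-sided p below 0.333, so these orders are descriptions.

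Between brown and beige, Ets1, Gabpa, Elf1 and Etv6 ranked higher in both brown libraries, 4 of 10 against 33.5% of all, and 0 of 10 ranked lower against 17.4%. Between brown and white, Ets2 and Erf ranked higher (2 of 10 against 34.6%), and Elk3, Etv6 and Fli1 ranked lower (3 of 10 against 15.0%). Among open promoters only, the brown and white comparison gave 0 higher (24.3% of all) and 5 lower (23.5%). On that scale the brown and beige comparison gave 3 higher (27.1%), without Ets1, and 1 lower (22.9%). The counts of both comparisons with brown rest on the same brown libraries, and those with beige on the same beige libraries.

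By its pattern over the 6 libraries, the promoter most like that of Ets1 was Elk4, followed by Gabpa and Elf1. The mean absolute difference in centred score was 0.134, 0.140 and 0.141, over 6 libraries, of which the 2 in a group share depot and medium. The 3 values lie close together and are given as an order only.

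Alternative start sites were not open alike. Of 25 coding start sites of the 10 genes, 17 had a peak within 1 kb in all 6 libraries, 6 had none in any, and 2 had one in some. Erg held 5 of the 6 sites without a peak. These were its internal starts, those of Erg-207, Erg-203 and Erg-204 among them, and only the most upstream start, of Erg-206, had a peak. The Elk3 site without a peak was an internal one, at position 93284975 of chromosome 10. The second start of Elf1, of Elf1-202 and Elf1-204, had a peak in beige replicate 2 and white replicate 1 alone, with -log10 q values of 6.43 and 4.39 against the authors' threshold of 1.30. The upstream non-coding start of Ets1 (Ets1-203 and Ets1-204) lies some 60 kb before its coding starts. It had a peak within 1 kb in 5 libraries and none in brown replicate 2. In both beige libraries and brown replicate 1 the strongest such peak had its summit beyond 1 kb, and only its edge came nearer. The merged region holding these summits, at -60.9 kb, was open in all 6 libraries. The count of 5 thus does not show that this site was closed in brown replicate 2. Fli1-202 had a peak within 1 kb in 5 libraries and not in beige replicate 1. A merged region reaching into that distance, at the Fli1 coding start, was open in all 6.

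Motifs of the family itself were searched in the promoters from RefSeq (GRCm38.p6), 250 bases before to 50 after a start, to show where ETS proteins could bind at ETS genes. These held 13 promoters for 8 of the 10 genes, and Ets1 and Fli1 were not among them. The letters CCGGAAG, with a CpG, were found on either strand in 2 of the 13, of Elk4 and Gabpa, and in 8.86% of all 32851 promoters. The letters CAGGAAG were found in 6 of the 13, of Elk3, Elk4, Erg, Etv6 and Gabpa, and in 13.3% of all promoters. Promoters of 1 gene can overlap and are not independent. In the stretches below, capitals mark the match, and positions count from the RefSeq start.
Elk3, chr10:93311169-93311197, - strand, motif start at -27: gggtggccgagCAGGAAGcggggcgggca
Elk4, chr1:132007541-132007569, + strand, motif start at -68: cggcccctcccCCGGAAGtgacgctcgcg
Elk4, chr1:132008020-132008048, + strand, motif start at -71: tgcgggcgcggCAGGAAGtgcaccgggcg
Elk4, chr1:132008270-132008298, + strand, motif start at -64: tgccggagtggCAGGAAGttggaaagtga
Erg, chr16:95459371-95459399, - strand, motif start at -40: aatagaaacctCTTCCTGccattggctga
Etv6, chr6:134035713-134035741, + strand, motif start at +24: tttctctcttcCAGGAAGgaaaacattcg
Gabpa, chr16:84835020-84835048, + strand, motif start at -93: gagggtaagtgCTTCCGGgtccctcagct
Gabpa, chr16:84834935-84834963, + strand, motif start at -178: cgctcaccggaCAGGAAGcgcctcgaagg

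All Elk3, Elk4, Etv6 and Gabpa matches lay in merged promoter regions open in all 6 libraries. The Erg match lay at an internal start that had no peak in any library. A match is a string of letters and shows no binding.

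**Figure D2:**
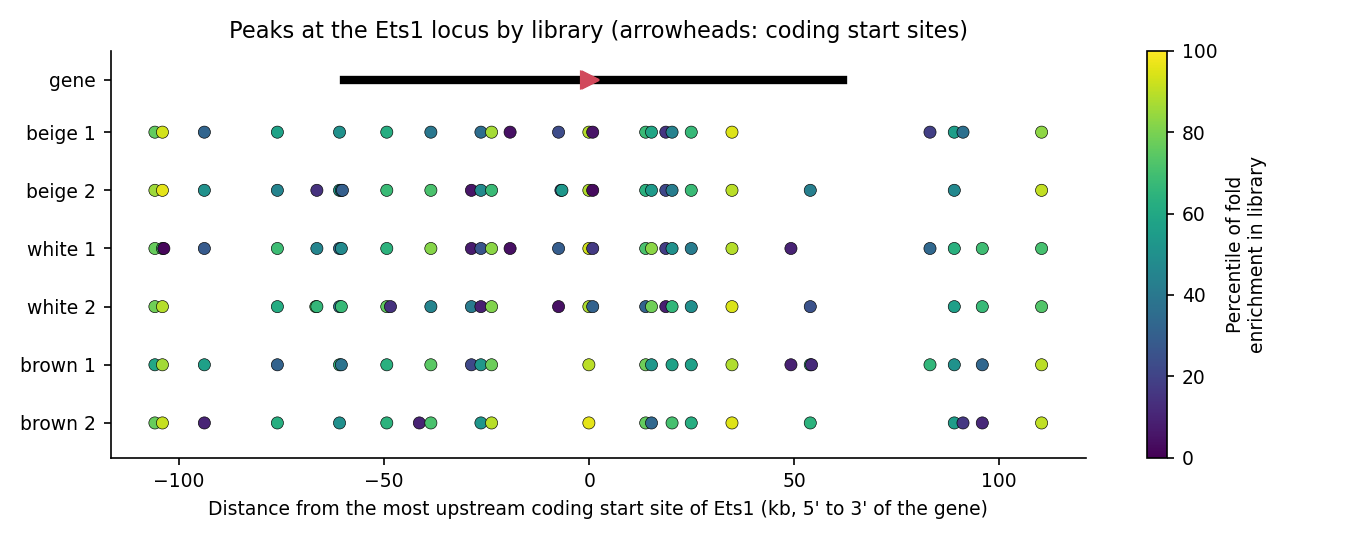
Peaks at the Ets1 locus by library (rows) against distance from the most upstream coding start of Ets1 (horizontal axis, kb); colour is the percentile within the library, the bar is the gene and arrowheads are coding starts. The promoter at 0 and the intronic region at +34.5 kb hold strong peaks in all 6 libraries, and the region near +95.5 kb has none in either beige library.

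Regions of the ETS loci were mostly either open everywhere or seen in 1 library. Of 271 merged regions, 95 had a peak in all 6 libraries (35.1%, against 30.2% of all merged regions) and 101 in a single library (37.3%, against 37.2%). By position, 117 lay in introns of the ETS genes, 84 between genes, 35 inside other genes, 18 at promoters of the genes themselves, 13 at promoters of other genes, 3 in coding exons and 1 in a UTR exon. Etv6 had the most regions, with 43 in a gene of 234 kb, and Elk4 the fewest, with 13. Per 100 kb of window, regions open in all 6 were densest at Erf (12.0) and Ets1 (7.22) and sparsest at Erg (1.22). The Erf window holds promoters of several other genes, and without 6 such regions it kept 7 of its 13. Erg had 29 regions, of which 16 were seen in 1 library and 4 in all 6.

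**Figure D3:**
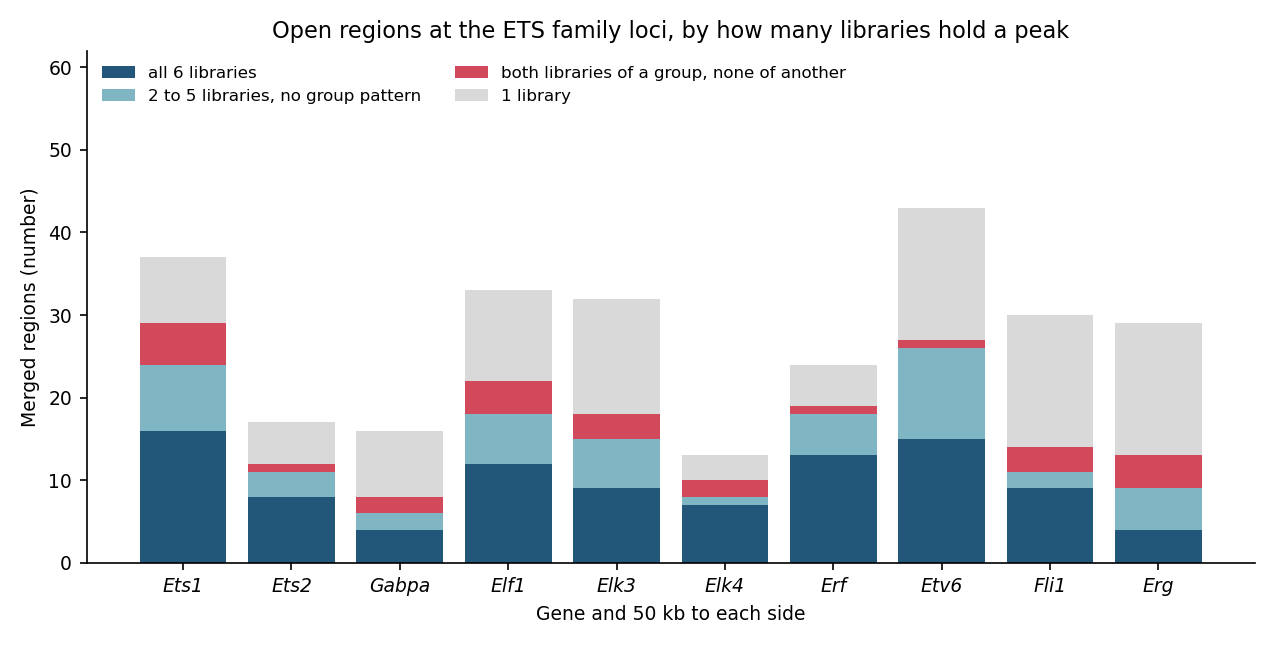
Number of merged open regions (vertical axis) in each ETS gene with 50 kb to each side (horizontal axis), stacked by how many libraries hold a peak. Erg and Gabpa have 4 regions each in all 6 libraries, whereas Ets1 has 16 and Etv6 15.

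Several distal regions ranked high, though not all of those below stood at the level of open promoters in every library. The highest percentile among those outside any promoter was held by a region 27.0 kb downstream of the Ets2 start (chr16:95728593-95729429, intergenic), at 98.5 and 98.2 in beige, 98.6 and 97.0 in white, and 98.4 and 96.6 in brown. It exceeded the Ets2 promoter in each library. A region 21.4 kb upstream of Elk3 (chr10:93332198-93332724) stood at 91.7 and 87.6 in beige, 98.4 and 94.0 in white, and 97.6 and 95.7 in brown, far above the weak Elk3 promoter, and beige lay below both other groups. An intron of Ets1 held a region 34.5 kb past the nearest coding start (chr9:32730641-32731190). It stood at 94.7 and 89.6, 89.0 and 94.3, and 88.2 and 95.0, with all groups overlapping. An Elf1 intronic region at +47.3 kb (chr14:79562624-79563329) stood at 97.9 and 97.8 in beige, 94.4 and 91.4 in white, and 82.6 and 82.5 in brown. A region in the windows of both Ets1 and Fli1, 50.3 kb upstream of the Fli1 start (chr9:32591685-32592081), stood between 71.2 and 96.1. Distances are to the nearest coding start of the gene.

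The mm10 sequence from 100 bases before to 100 after the summit is shown for the strongest Ets2 and Ets1 distal regions. These carried the largest constant signal at these genes. Capitals mark a C/EBP match (TTNNGCAA) at Ets2 and an AP-1 match (TGANTCA) at Ets1.
Ets2 +27.0 kb, chr16:95729016-95729216, + strand: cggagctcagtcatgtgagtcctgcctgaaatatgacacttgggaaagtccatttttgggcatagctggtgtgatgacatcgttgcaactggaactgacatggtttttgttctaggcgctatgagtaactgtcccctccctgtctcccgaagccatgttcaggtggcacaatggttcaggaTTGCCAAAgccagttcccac
Ets1 +34.5 kb, chr9:32730738-32730938, + strand: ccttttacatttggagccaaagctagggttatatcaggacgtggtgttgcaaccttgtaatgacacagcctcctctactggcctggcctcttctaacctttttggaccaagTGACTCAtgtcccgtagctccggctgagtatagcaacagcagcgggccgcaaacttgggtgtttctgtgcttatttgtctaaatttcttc

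AP-1 letters were found in 27 of the 95 ETS-locus windows open in all 6 libraries (28.4%) and in 26.6% of all 58714 such windows. CAGGAAG was found in 8.42% and 10.2%, CCGGAAG in 4.21% and 4.77%, and C/EBP letters in 10.5% and 13.2%. The shares at the ETS loci lay near those of all open regions for these motifs.

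At the ETS loci, 26 of 271 regions had a peak in both libraries of a group and none in another. The share of all merged regions with any such pattern was not taken, and shares are given by pair of groups. Over regions with a peak in either of the groups compared, 7 of 238 (2.94%) were open in both beige and no white libraries, against 5.14% of all such regions, and 3 of 238 (1.26%) in both white and no beige, against 2.27%. Between beige and brown, 12 of 231 (5.19%, against 5.71%) were open in both beige and no brown, and 3 of 231 (1.30%, against 1.85%) the other way. Between white and brown, 10 of 238 (4.20%, against 3.99%) were open in both white and no brown, and 3 of 238 (1.26%, against 3.37%) the other way. Of the 7 open in beige and not in white, 4 were at Erg, 1 each at Elf1, Gabpa and Etv6. None of the peaks of the 26 regions ranked above percentile 68.8, and a missing peak means only that the threshold was not passed.

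**Figure D4:**
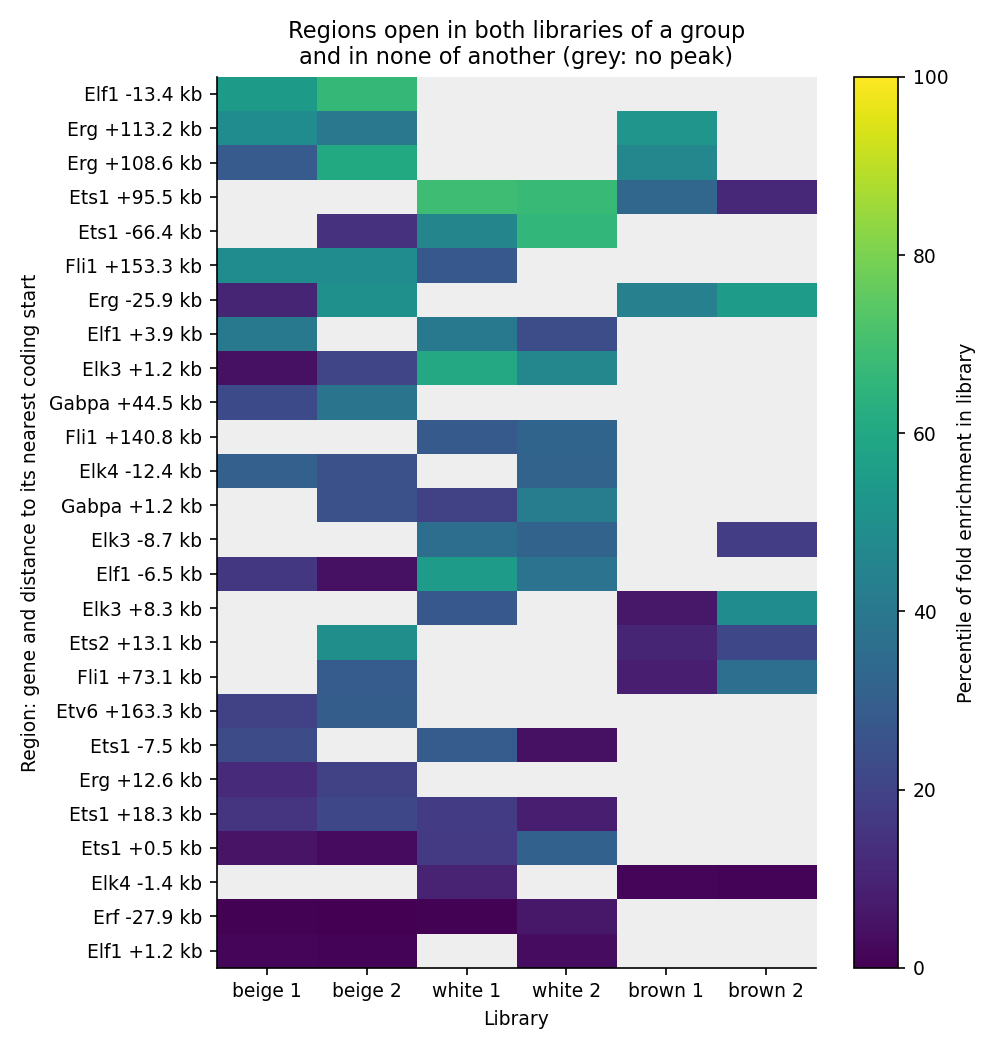
Percentile of fold enrichment in each library (colour) for the 26 regions at ETS loci with a peak in both libraries of a group and none of another (vertical axis, gene and distance to its nearest coding start). Grey is no peak; the Elf1 region at -13.4 kb has peaks in the beige libraries alone, and the Ets1 region at +95.5 kb in the white and brown libraries alone.

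The region of highest mean rank in this set lay 13.4 kb before Elf1, in an intron of Wbp4 (chr14:79467725-79467933). It stood at percentile 54.5 and 66.6 in beige, with -log10 q of 8.60 and 14.1, and had no peak in the 4 other libraries. Also beige alone was a stretch of 153 bp 44.5 kb downstream of Gabpa, at 22.3 and 38.4, but it lay 16 bp beside a region open in all 6 libraries at 54.9 to 95.9. A region 153.3 kb downstream of the Fli1 start, in an intron of Kcnj1, was open in both beige libraries and white replicate 1 and in no brown library, at 48.5, 48.8 and 27.7. The Ets1 locus gave the opposite case: a region 95.5 kb past its coding starts (chr9:32791664-32792348) stood at 68.8 and 67.4 in white and 33.0 and 11.3 in brown, with no peak in beige.

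Erg, which had few constant regions, held 3 of the 10 highest-ranked ones. Regions at +113.2 kb and +108.6 kb, past the end of the gene, were open in both beige libraries and brown replicate 1, at 48.6, 40.2 and 52.0 and at 28.6, 60.9 and 46.4. A region 25.9 kb upstream of Erg was open in both beige (10.2 and 50.3) and both brown libraries (43.6 and 55.0) and in no white one. White cells received neither T3 nor rosiglitazone, and the part of the medium was not tested.

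**Figure D5:**
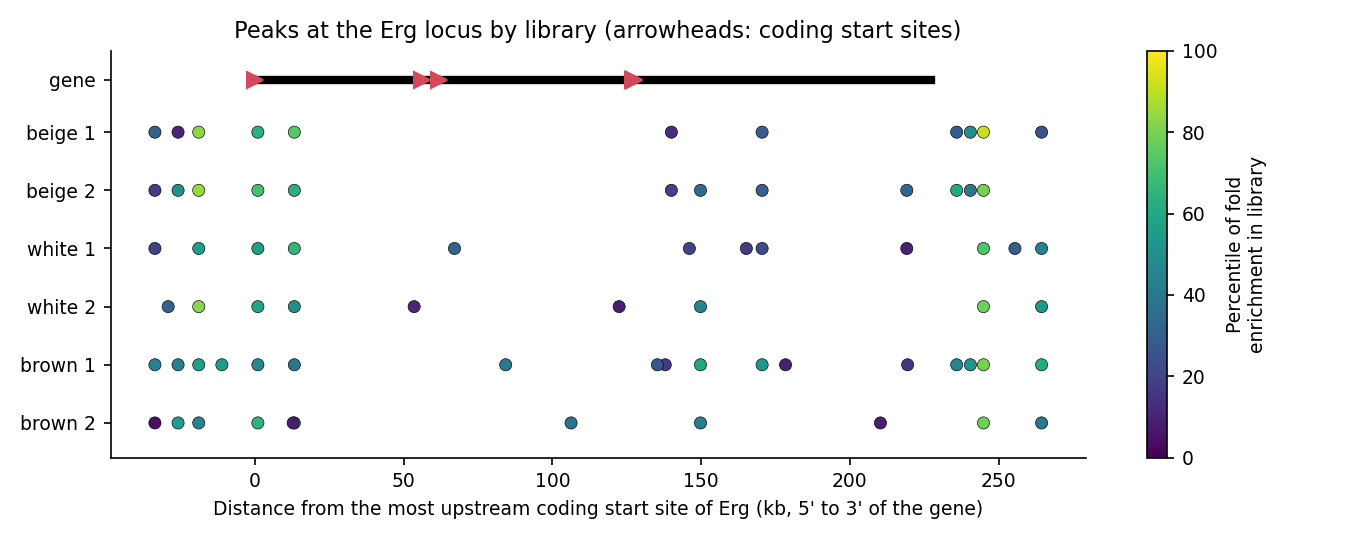
Peaks at the Erg locus by library (rows) against distance from the most upstream coding start of Erg (horizontal axis, kb); colour is the percentile within the library, the bar is the gene and arrowheads are coding starts. Peaks stand near the most upstream start, and the internal starts have none within 1 kb in any library.

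The remaining regions of highest rank were an Ets1 region at -66.4 kb (14.1 in beige replicate 2, 45.4 and 66.1 in white, none in brown), an Elf1 intronic region at +3.9 kb (40.6 in beige replicate 1, 40.5 and 23.5 in white, none in brown), and an Elk3 intronic region at +1.2 kb. The last stood at 4.47 and 20.97 in beige and 60.5 and 46.3 in white, and was absent in brown. The Elf1 and Elk3 regions lay 99 and 65 bp from regions open in all 6 libraries. Ets1 also had 2 regions open in all 4 inguinal libraries and in no brown library, named here after their values were seen: at +0.5 kb, 165 bp from the promoter peak (5.32 and 2.94 in beige, 17.1 and 31.0 in white), and at +18.3 kb in an intron (15.4 and 21.7 in beige, 17.9 and 8.29 in white).

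Sequences of 3 of these regions, chosen after their values were seen, are shown. They are the highest-ranked such regions of Elf1 and Erg, and the Ets1 intronic region open in the inguinal libraries alone. Capitals mark the matches of the ETS letters CAGGAAG, the AP-1 letters and the CTCF core, which is CCA, AG and GG with 2 free bases between each. The last motif was searched after the sequences had been read, and its spelling is the third tried.
Elf1 -13.4 kb, chr14:79467727-79467927, + strand: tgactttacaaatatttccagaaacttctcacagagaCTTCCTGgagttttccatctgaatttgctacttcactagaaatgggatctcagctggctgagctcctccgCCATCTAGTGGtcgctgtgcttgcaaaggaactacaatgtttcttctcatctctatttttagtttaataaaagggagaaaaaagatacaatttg
Erg +113.2 kb, chr16:95345974-95346174, + strand: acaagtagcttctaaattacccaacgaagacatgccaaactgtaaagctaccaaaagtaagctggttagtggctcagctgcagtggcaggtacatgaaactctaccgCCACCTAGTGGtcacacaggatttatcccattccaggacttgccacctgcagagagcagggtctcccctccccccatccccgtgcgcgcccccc
Ets1 +18.3 kb, chr9:32714608-32714808, + strand: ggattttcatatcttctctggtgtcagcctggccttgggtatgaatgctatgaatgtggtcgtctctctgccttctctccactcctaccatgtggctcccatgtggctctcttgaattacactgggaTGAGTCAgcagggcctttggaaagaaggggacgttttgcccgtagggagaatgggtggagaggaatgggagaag

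CTCF core letters were found in 7.37% of the ETS-locus windows open in all 6 libraries, in 13.1% of all such windows and in 15.7% of all windows open in both beige and no white libraries. With the earlier spellings CNCTAGNGG and ANCTAGNGG, the shares of ETS-locus windows were 2.11% and 1.05%, and those of all windows 4.11% and 3.13%. The first did not match the Elf1 and Erg regions shown and the second did.

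Ranks were then tested across the 58714 regions open in all 6 libraries, to ask whether any of the 95 at ETS loci shifted in rank between groups. With limma on normal scores of the percentile and Benjamini-Hochberg adjustment over all regions, 0 of 95 ETS-locus regions passed an adjusted p of 0.05 in any of the 3 comparisons. Over all regions 0% passed between beige and white, 0% between brown and beige and 0.00170%, a single region, between brown and white. At an unadjusted p under 0.05, 21 of 95 passed between beige and white (15.9% of all regions), 15 between brown and beige (13.1%) and 19 between brown and white (15.9%). The median score difference of the 95 was 0.04 between beige and white, -0.14 between brown and beige and -0.00485 between brown and white, against 0.03, -0.02 and -0.01 over all.

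The region of lowest p between beige and white, named after its values were seen, was in an Elk4 intron 3.0 kb past the start (chr1:132010677-132011035). It stood at percentile 0.183 and 0.418 in beige, 14.8 and 31.6 in white, and 32.1 and 32.6 in brown, so that both beige libraries lay below all 4 others. The limma score difference of beige minus white was -2.01 (SE 0.27, adjusted p = 0.135), and that of brown minus beige 2.31 (SE 0.27, adjusted p = 0.243). Neither passed. In percentile points, where the low tail is not stretched as in the scores, the shift between beige and white was -22.9, and an Etv6 intronic region (chr6:134207811-134208164) shifted by -44.1. The Elk4 promoter overlapped between all groups among all peaks, and among open promoters alone beige lay below white. The sequence of this region is shown with its AP-1 match in capitals.
Elk4 +3.0 kb, chr1:132010746-132010946, + strand: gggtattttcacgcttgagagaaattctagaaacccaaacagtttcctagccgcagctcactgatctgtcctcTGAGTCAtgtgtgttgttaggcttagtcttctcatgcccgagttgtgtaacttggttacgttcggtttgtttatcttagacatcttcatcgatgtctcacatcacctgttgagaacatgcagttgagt

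The Elf1 region at +47.3 kb, the second of lowest p between brown and beige, had a score difference of -1.08 (SE 0.23, limma adjusted p = 0.243). The Etv6 intronic region was lowest after Elk4 between beige and white, at -1.18 (SE 0.23, limma adjusted p = 0.141).

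Of 16 other ETS family genes, 10 had a promoter peak in all 6 libraries, as 62.9% of all protein-coding genes did, and 6 in none. The open ones included Elk1 at a mean percentile of 93.5, Etv5 at 93.1 and Etv3 at 91.0, above every one of the 10 genes described, and Etv2 at 41.4, below them. Elf3 and Elf5 were also open in all 6 libraries, at mean percentiles of 71.9 and 69.9. The closed ones were Ehf, Spdef, Fev, Spi1, Spib and Spic. Promoters of partners of the ETS proteins were open in every library. Gabpb1 and Gabpb2, the partners of Gabpa, stood at 81.1 and 87.9, and Srf, the partner of Elk3 and Elk4, at 76.0. The coactivator genes Crebbp and Ep300 stood at 86.0 and 72.9, and Runx1, which binds with Ets1, at 82.7.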

How the data were processed

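The measurements were 6 ATAC-seq peak lists, 1 per library. Adaptors were trimmed with Trimmomatic 0.36, reads aligned to mm10 with BWA 0.7.17 and peaks called per library with MACS2 2.2.8 at a q value under 0.05, per the methods and the submitters' processing notes. In the deposited files the fold enrichment is a ratio of summit pileup to local background within a library, and each summit carries its own -log10 q. Intervals with several summits were counted once, at the highest -log10 q. Folds were only ranked within a list, since neither value is comparable between libraries.

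Intervals of the 6 lists that overlapped by 1 bp were merged. Genes and start sites were those of GENCODE M21 (protein-coding transcripts of the basic set). Percentiles were turned into normal scores and tested with limma 3.58.1 (R 4.3.3) in 1 fit of 3 groups with 2 libraries each, 3 residual degrees of freedom and a prior of 5.31, over regions open in all 6 libraries; the script was tested on simulated data. Python 3.11.15, numpy 2.4.6, pandas 2.3.3 and scipy 1.17.1 were used. Named were the 10 genes, the 10 regions of highest mean percentile among those open in both libraries of a group and none of another, the lists of other ETS genes, partners and cell type markers, and the 3 genes most like Ets1. Genes, lists and tests were chosen with earlier results of these data known, and motifs were searched on both strands as letters. The CTCF motif was added after printed sequences had been read, as its first spelling missed them, and the third is the one reported. Part of the partner list is not reported here.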

Additional observations from a re-analysis of the deposited data

How the results depend on the processing

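Percentiles are ranks within a list, so a region can fall because others rose, and a missing peak may be one just under the threshold. All 10 genes kept an open promoter in all 6 libraries under a q value of 0.01 or 1e-05, equally long lists, summits inside the window and each library left out, and 9 did with a promoter distance of 500 or 250 bp, where Erg dropped out. Of the coding start sites 16 to 17 stayed open in all 6 under these settings, and 24 start sites did when those of all transcripts were taken. Regions open in all 6 numbered 68 to 127 under the other settings, the lowest with a flank of 20 kb and the highest with 100 kb. Regions open in both libraries of a group and none of the other numbered 10 for beige and white, 15 for brown and beige and 13 for brown and white. With a flank of 100 kb these were 21 for beige and white and 25 for brown and white. Leaving out a library in turn gave 10 to 46, 15 to 46 and 13 to 49, since a group of 1 library needs only its own peak, and each of the 6 libraries moved the counts of its own group by over 1.5 times. Of the 26 regions, 17 kept such a pattern at a q value under 1e-05. With absent peaks set to the lowest rank, limma called 9, 11 and 7 of 149 regions at ETS loci for beige and white, brown and beige, and brown and white (6.04%, 7.38% and 4.70%, against 8.77%, 7.77% and 8.41% of all 104954 regions), among them the Elk4 region at +3.0 kb (limma adjusted p = 0.0193 and 0.0130 in the first and second). That setting gives peaks absent from both libraries of a group nearly one value. The Elk4 region has a peak in every library, so that setting left its own scores unchanged. Only the prior of the fit and the adjustment, both taken over more regions, differed for it. How much each lowered its adjusted p was not tested. Over the 12 settings that held the Elk4 region, its adjusted p ran from 0.0193 to 0.458 for beige and white and from 0.0130 to 0.738 for brown and beige. The other rank settings gave 0 calls at ETS loci. Samples of the same number were not paired by the labels and their deviations correlated at 0.08, -0.01 and 0.03, and the fit with the replicate block called 0, 0 and 0. Of 414 promoter percentile differences recomputed, 46 moved by more than the replicate SD. Beige minus white kept its sign under the 14 settings for Ets2, Gabpa, Elf1, Elk3 and Etv6 and under the 12 that gave Erg a value, and changed it for Elk4 in 4, Fli1 in 3, Ets1 in 1 and Erf in 1.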
